A study of Mus musculus with 8 samples.

Results

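The DNA replication machinery was described through 49 genes, of 18193 genes with a named probe set on the array, chosen by their role in replication, with earlier results of these data known. They cover the origin recognition complex (ORC), the licensing factors, the MCM helicase and its activators, GINS, the replicative polymerases, the sliding clamp and its loader, RPA, Okazaki fragment joining, ribonucleotide reductase and fork protection. Total RNA of the mouse embryonic stem cell (ESC) line R1/E was hybridised to 8 Affymetrix expression arrays. In 4 of them the cells had received esiRNA, an enzymatically made pool of short interfering RNAs, against Rad21, a core subunit of the cohesin ring. The other 4 came from cells given esiRNA against luciferase (Luc), a gene that mouse cells lack. Both groups were wells of 80000 cells of the same line, reverse transfected with Lipofectamine2000 and 800 ng of esiRNA and taken after 48 h. The labels number them as biological replicates 1 to 4 in each group. Levels are GCRMA values on the log2 scale, and a change is the Rad21 knock-down mean minus the Luc mean on that scale. A change was called when the adjusted p-value was under 0.05 (limma, Benjamini-Hochberg over 45037 probe sets), and each gene was represented by its brightest probe set. RNA came from whole wells, so fewer cells that express a gene and less of its RNA per cell cannot be told apart.

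Replication begins at origins, where ORC together with CDC6 and CDT1 loads the ring of MCM proteins onto DNA before S phase. CDC7-DBF4 kinase, CDC45, GINS and MCM10 turn the loaded ring into an active helicase, polymerase alpha-primase lays down primers, and polymerases delta and epsilon extend them on the PCNA clamp. Many of these genes are transcribed together at the G1/S transition under E2F factors, and ESCs, which cycle rapidly with a short G1 phase, are known for high levels of licensing factors. Cohesin is loaded onto the same chromatin and is locked around sister chromatids during S phase.

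Some of the replication genes fell after Rad21 knock-down, by small amounts. Of the 49 genes, 17 fell, 1 rose (Rpa3) and 31 were not called. Calls in either direction covered 36.7% of them, 22.6% of all genes and 14.9% of all probe sets. The falls made up 34.7% of the genes, while 12.6% of all genes fell and 10.1% rose. Replication genes are bright on these arrays, 48 of 49 having a mean of at least 8, and among the 6574 genes of that brightness 26.0% fell and 16.5% rose, 42.4% in all. The sign was negative for 40 of 49 genes (81.6%), against 47.3% of all genes and 57.3% of the bright ones. The median change was -0.131 over the replication genes, 0.003 over all genes and -0.047 over the bright genes. Most changes were small, 45 of 49 being under 0.5 in size and all lying between -0.60 and 0.32. The 4 knock-down arrays and the 4 Luc arrays did not overlap for 24 genes (49%), with the knock-down lower for 22 and higher for 2. They did not overlap for 49% of the bright genes (29.6% lower, 19.4% higher) and for 27.8% of all genes (15.2% lower, 12.6% higher).

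**Figure D1:**
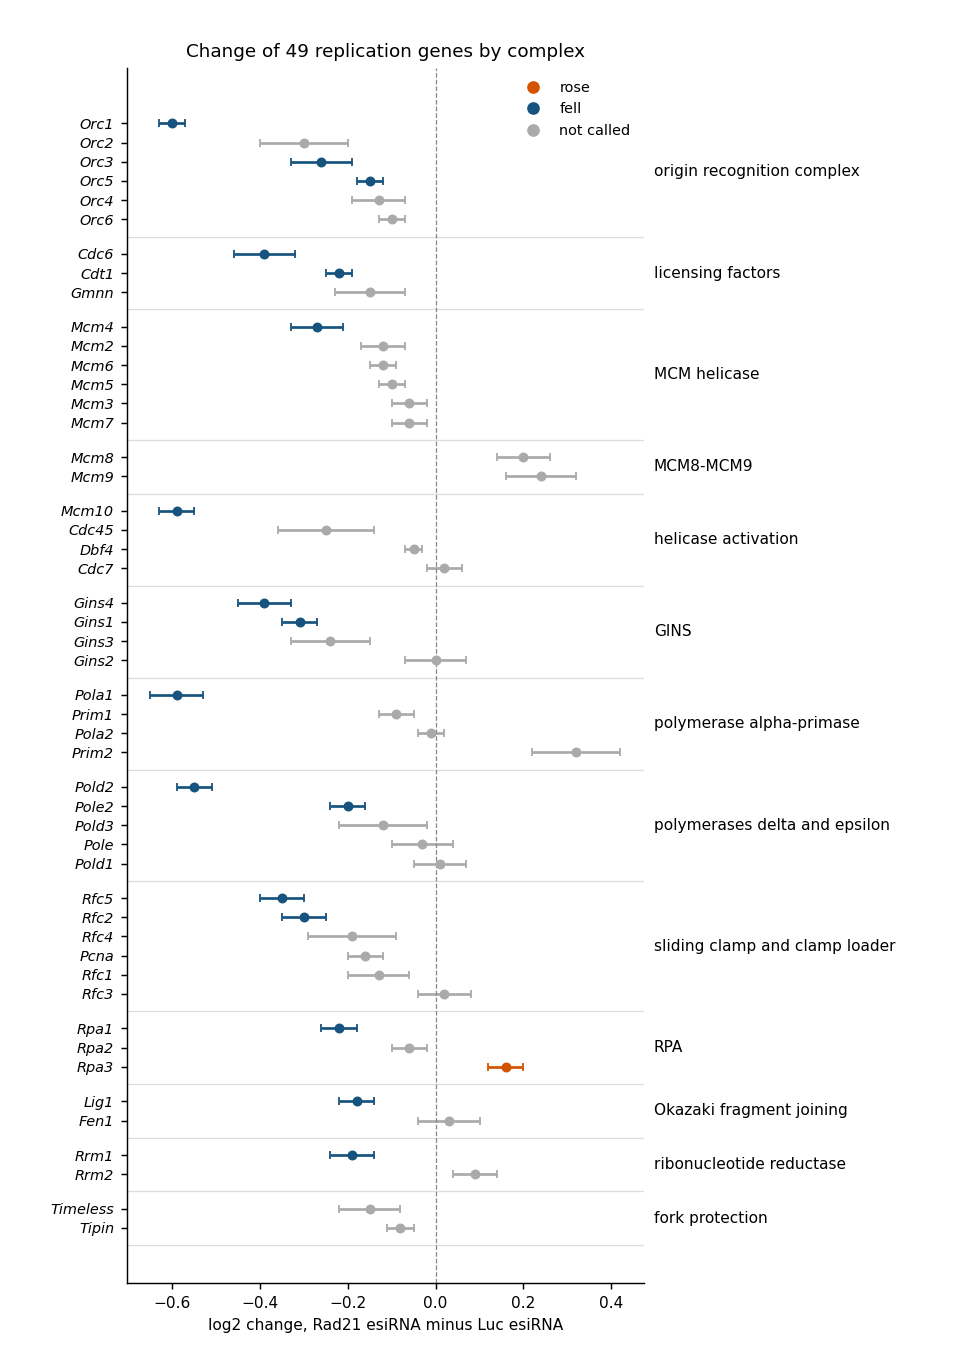
Log2 change (Rad21 esiRNA minus Luc esiRNA, horizontal axis) of the 49 replication genes, grouped by complex, with bars for the standard error (n = 4 arrays per group) and colour for the call. The largest falls, between -0.60 and -0.55, belong to Orc1, Mcm10, Pola1 and Pold2, which sit in different complexes, and Rpa3 at 0.16 is the called rise.

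The arrays carried the labelled knock-down and were alike in quality. At the brightest Rad21 probe set the knock-down arrays read 11.69, 11.75, 12.37 and 12.52 and the Luc arrays 13.62, 13.42, 13.83 and 13.79, a change of -1.58 ± 0.21 (SE) to 33.4% of the Luc level (limma, adjusted p = 0.00222), and all 3 Rad21 probe sets fell. Actb control probe sets differed between 3′ and 5′ by 0.38 to 0.44 in the knock-down and by 0.37 to 0.46 in Luc (exact two-sided permutation p = 1). For Gapdh the difference was -0.30 to -0.25 in the knock-down and -0.28 to -0.23 in Luc (exact two-sided permutation p = 0.514). An earlier analysis of these arrays saw replicates 1 and 2 part from replicates 3 and 4 on the second principal component. That component held 11.6% of the variance here, and the labels name no batch. For the replication genes, the median distance from the Luc mean was -0.143, -0.147, -0.104 and -0.153 on the knock-down arrays and -0.01, 0.063, -0.046 and -0.001 on the Luc arrays. Each knock-down array was thus below each Luc array in this median.

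Since replication genes are typically transcribed together at the start of S phase, their promoters were searched for the letters of an E2F site, TTTCCCGC, TTTCGCGC, TTTGCCGC or TTTGGCGC on either strand. Reference windows from 250 bases before to 50 bases after the transcript start (RefSeq, GRCm38.p6) were found for 40 of the 49 genes. Such letters stood in the windows of 16 genes (40.0%), against 3.29% of 17492 coding genes and 2.26% of all 32851 windows. In the 250 bases before the start they stood in 9 genes (22.5%), against 2.72% of coding genes. They were present for 7 of the 13 genes with a window that fell, for 9 of the 26 that were not called, and not for Rpa3. Mcm10 and Pold2, which had some of the largest falls, hold no such letters in these windows. The letters of other cell cycle promoter elements were searched on both strands as well. The CHR letters TTTGAA or TTCGAA stood in 9 genes (22.5%, against 20.2% of coding genes), and CCAAT stood in 25 (62.5%, against 42.3%). None of these letter strings contains another. A match is a description of the sequence and not evidence of a bound site. The stretches shown are those of the called genes with the largest falls that hold an E2F match, and of Pold1, which holds one and whose level differed by 0.01. Each runs 5′ to 3′ on the gene's strand in lower case, with the match in capitals, in the 250 bases before the start for Orc1, Pola1, Cdc6 and Orc3 and in 30 bases after the start for Cdt1 and Pold1. In Orc1 the match begins 27 bases before the start, in Pola1 and Cdc6 138 bases before it and in Orc3 41 bases before it, whereas it begins 32 bases after the start in Cdt1 and 39 bases after it in Pold1.
Orc1, chr4:108579204-108579453, plus strand: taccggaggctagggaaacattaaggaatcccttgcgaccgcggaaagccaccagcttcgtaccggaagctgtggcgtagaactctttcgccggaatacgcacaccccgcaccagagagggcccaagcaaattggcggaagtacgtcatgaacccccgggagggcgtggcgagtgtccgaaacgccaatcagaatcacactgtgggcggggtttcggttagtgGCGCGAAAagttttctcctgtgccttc
Pola1, chrX:93632156-93632405, minus strand: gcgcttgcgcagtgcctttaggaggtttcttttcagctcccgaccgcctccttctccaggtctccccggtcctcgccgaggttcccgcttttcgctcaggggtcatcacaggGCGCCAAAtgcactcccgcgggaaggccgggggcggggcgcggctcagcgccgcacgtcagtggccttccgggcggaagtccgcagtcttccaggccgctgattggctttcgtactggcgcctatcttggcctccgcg
Cdc6, chr11:98907901-98908150, plus strand: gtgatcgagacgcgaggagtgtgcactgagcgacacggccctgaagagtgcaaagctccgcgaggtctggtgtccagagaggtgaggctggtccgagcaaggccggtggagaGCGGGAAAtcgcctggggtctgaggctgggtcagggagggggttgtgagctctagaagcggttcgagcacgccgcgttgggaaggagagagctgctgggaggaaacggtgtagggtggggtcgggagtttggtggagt
Orc3, chr4:34614943-34615192, minus strand: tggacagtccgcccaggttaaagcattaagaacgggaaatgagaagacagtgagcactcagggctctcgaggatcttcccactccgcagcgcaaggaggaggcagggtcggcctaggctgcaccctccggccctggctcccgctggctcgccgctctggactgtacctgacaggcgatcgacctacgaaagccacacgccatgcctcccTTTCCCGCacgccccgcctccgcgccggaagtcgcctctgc
Cdt1, chr8:122568035-122568064, plus strand: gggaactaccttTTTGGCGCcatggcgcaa
Pold1, chr7:44548766-44548795, minus strand: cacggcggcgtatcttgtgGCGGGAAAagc

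At their brightest probe sets all 6 ORC genes had a negative change and 3 of them fell, with a median of -0.206. Orc1, an ATPase subunit that holds an E2F match close to its start, had the largest fall of the 49 genes. In replicates 1 to 4, the order used for all array values, it read 10.22, 10.26, 10.30 and 10.29 in the knock-down and 10.86, 10.92, 10.81 and 10.88 in Luc. The groups were far apart relative to their spread, with a change of -0.60 ± 0.03 (SE) to 66.1% of the Luc level (limma, adjusted p = 3.06e-05). Orc3, a core subunit, read 9.96, 9.92, 10.18 and 10.11 in the knock-down and 10.29, 10.40, 10.25 and 10.28 in Luc (-0.26 ± 0.07, adjusted p = 0.0343). The groups did not overlap, but knock-down replicate 3 was only slightly below Luc replicate 3, and the call rested on the whole set of arrays: it was lost on leaving out any one array other than knock-down replicate 3, with adjusted p-values up to 0.0895. Orc5, another core subunit, read 11.59, 11.60, 11.58 and 11.60 in the knock-down and 11.73, 11.82, 11.72 and 11.70 in Luc, a small but even difference of -0.15 ± 0.03 (adjusted p = 0.013). Orc2, Orc4 and Orc6 changed by -0.30 ± 0.10, -0.13 ± 0.06 and -0.10 ± 0.03 and were not called (adjusted p = 0.0868, 0.24 and 0.0739), although Orc2 and Orc6 were with a block for replicates 1 and 2 against 3 and 4 (adjusted p = 0.0131 and 0.0222). The groups overlapped for Orc2 and Orc4 and not for Orc6. For Orc2 both dimmer probe sets did fall, by 0.34 and 0.50 (log2 changes -0.34 and -0.50, adjusted p = 0.0261 and 0.0379). The dimmer Orc4 probe sets went the other way, at 0.09, 0.03 and 0.16, and were not called.

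Of the licensing factors, Cdc6 and Cdt1 fell and geminin was not called. Cdc6, the ATPase that joins ORC to load MCM rings, read 10.19, 10.22, 10.45 and 10.43 in the knock-down and 10.68, 10.83, 10.70 and 10.64 in Luc. Every knock-down array was below every Luc array, and replicates 1 and 2 were the lowest of the knock-down. The change was -0.39 ± 0.07, to 76.3% of the Luc level (limma, adjusted p = 0.01). Cdt1, which brings the MCM ring to ORC and is destroyed in S phase, read 13.97, 13.98, 14.02 and 13.93 in the knock-down and 14.16, 14.25, 14.13 and 14.21 in Luc (-0.22 ± 0.03, adjusted p = 0.00435). A second, dimmer Cdt1 probe set also fell, with a change of -0.34 (adjusted p = 0.00587). Gmnn, which encodes geminin, the inhibitor of CDT1, ranged from 12.78 to 12.90 in the knock-down and from 12.85 to 13.24 in Luc (-0.15 ± 0.08, adjusted p = 0.395). The highest of these values was Luc replicate 2, and the groups overlapped.

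The 6 subunits of the MCM2-7 ring had negative changes at their brightest probe sets, of which only that of Mcm4 was called. Mcm4 read 13.30, 13.38, 13.55 and 13.48 in the knock-down and 13.66, 13.77, 13.66 and 13.71 in Luc (-0.27 ± 0.06, 82.8% of the Luc level, limma, adjusted p = 0.0161). The groups did not overlap, and the knock-down arrays differed more among themselves than the Luc arrays did. The other 5 subunits lay between -0.12 and -0.06, with Mcm2 and Mcm6 at -0.12, Mcm5 at -0.10 and Mcm3 and Mcm7 at -0.06. Mcm6 was close to the threshold (adjusted p = 0.0523), with values from 12.94 to 12.99 in the knock-down and from 13.00 to 13.15 in Luc. Mcm8 and Mcm9, which form a separate helicase that acts in recombination, were the only complex with both changes positive, 0.20 ± 0.06 and 0.24 ± 0.08, and neither was called (adjusted p = 0.0912 and 0.0895). Mcm8 ranged from 8.77 to 9.00 in the knock-down and from 8.62 to 8.76 in Luc, so the groups did not overlap, whereas those of Mcm9 did.

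Among the genes that activate the helicase, Mcm10 and the GINS subunits Gins1 and Gins4 fell. Mcm10, a scaffold that the loaded ring needs to unwind DNA, read 10.44, 10.54, 10.62 and 10.60 in the knock-down and 11.13, 11.19, 11.09 and 11.15 in Luc. The gap between the groups was wider than the range within either of them, and the change was -0.59 ± 0.04, to 66.3% of the Luc level (limma, adjusted p = 1.44e-04). Gins4 read 11.49, 11.48, 11.70 and 11.61 in the knock-down and 11.87, 11.98, 11.95 and 12.04 in Luc (-0.39 ± 0.06, adjusted p = 0.00401). Gins1 read 11.60, 11.58, 11.56 and 11.57 in the knock-down and 11.92, 12.00, 11.82 and 11.83 in Luc (-0.31 ± 0.04, adjusted p = 0.00177). Both genes encode subunits of the 4-protein ring that binds MCM and CDC45, and in both the groups were apart. The other GINS genes were not called, Gins3 at -0.24 ± 0.09 (adjusted p = 0.139) and Gins2 at 0.00 ± 0.07 (adjusted p = 0.995), so the 4 genes spanned changes from -0.39 to 0.00. Cdc45, the remaining part of the active helicase, differed by replicate: it read 8.42 and 8.36 in the knock-down against 8.88 and 8.90 in Luc for replicates 1 and 2, and 8.46 and 8.57 against 8.47 and 8.56 for replicates 3 and 4. It was not called over all 8 arrays (-0.25 ± 0.11, adjusted p = 0.215). The kinase genes Cdc7 and Dbf4 changed by 0.02 ± 0.04 and -0.05 ± 0.02 and were not called (adjusted p = 0.911 and 0.162).

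Within polymerase alpha-primase, which starts each new strand, the catalytic subunit alone was called. Pola1 read 10.91, 10.92, 11.06 and 11.04 in the knock-down and 11.45, 11.56, 11.66 and 11.61 in Luc. The groups were apart in every replicate, with a change of -0.59 ± 0.06 to 66.7% of the Luc level (limma, adjusted p = 5.28e-04). Its partner Pola2 changed by -0.01 ± 0.03 and the primase catalytic subunit Prim1 by -0.09 ± 0.04 (adjusted p = 0.906 and 0.222). Prim2, the large primase subunit, had the highest change of the 49 genes, 0.32 ± 0.10, but was not called (adjusted p = 0.0829). It ranged from 10.89 to 11.01 in the knock-down and from 10.40 to 10.90 in Luc, where replicate 4 was the highest and reached the knock-down values. Without Luc replicate 4 the change was 0.41 and was called (adjusted p = 0.0119).

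Polymerases delta and epsilon showed the same unevenness between subunits. Pold2, an accessory subunit that holds polymerase delta together, read 10.89, 11.00, 10.99 and 10.95 in the knock-down and 11.60, 11.51, 11.43 and 11.48 in Luc. The change was -0.55 ± 0.04, to 68.3% of the Luc level, and no array came near the other group (limma, adjusted p = 2.03e-04). Pole2, the B subunit of polymerase epsilon, read 11.27, 11.28, 11.32 and 11.34 in the knock-down and 11.53, 11.61, 11.46 and 11.41 in Luc (-0.20 ± 0.04, adjusted p = 0.023). Its groups did not overlap, and its call was lost without knock-down replicate 1, knock-down replicate 2 or Luc replicate 1 (adjusted p up to 0.0658). The catalytic subunits Pold1 and Pole changed by 0.01 ± 0.06 and -0.03 ± 0.07 and were not called (adjusted p = 0.973 and 0.924), with overlapping groups in both. Pold3, a further subunit of polymerase delta, was not called at its brightest probe set (-0.12 ± 0.10, adjusted p = 0.623) and fell at a dimmer one (-0.51 ± 0.08, adjusted p = 0.00455), while another read 0.08.

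Rfc5 and Rfc2, small subunits of the RFC clamp loader, fell. Rfc5 read 12.41, 12.33, 12.51 and 12.46 in the knock-down and 12.72, 12.88, 12.69 and 12.80 in Luc (-0.35 ± 0.05, 78.6% of the Luc level, limma, adjusted p = 0.00423). Rfc2 read 11.28, 11.28, 11.46 and 11.30 in the knock-down and 11.65, 11.71, 11.53 and 11.62 in Luc (-0.30 ± 0.05, adjusted p = 0.00797). The groups of both were apart, with knock-down replicate 3 of Rfc2 well above its other 3 arrays and nearest to Luc. The remaining loader genes were not called at their brightest probe sets, Rfc4 at -0.19 ± 0.10, Rfc1 at -0.13 ± 0.07 and Rfc3 at 0.02 ± 0.06 (adjusted p = 0.353, 0.327 and 0.932). Pcna, the clamp itself, read 15.12, 15.18, 15.26 and 15.15 in the knock-down and 15.32, 15.43, 15.26 and 15.32 in Luc (-0.16 ± 0.04, adjusted p = 0.0527). It missed the threshold narrowly, and its replicate 3 values were nearly the same in both groups. Without replicate 3 of either group it was called, at -0.19 without the knock-down one (adjusted p = 0.0336) and -0.18 without the Luc one (adjusted p = 0.0452).

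RPA, the trimer that coats single-stranded DNA, was the only complex with calls in both directions. Rpa1, its large subunit, read 14.09, 14.04, 14.18 and 14.11 in the knock-down and 14.21, 14.36, 14.36 and 14.36 in Luc (-0.22 ± 0.04, adjusted p = 0.0151). Luc replicate 1 was the lowest of the Luc arrays and lay just above the highest knock-down array. Rpa3, its small subunit, read 11.90, 11.89, 11.90 and 12.02 in the knock-down and 11.76, 11.71, 11.84 and 11.77 in Luc (0.16 ± 0.04, 111% of the Luc level, limma, adjusted p = 0.0361). The groups did not overlap, yet this single called rise among the 49 genes was lost on leaving out any array other than Luc replicate 3 (adjusted p up to 0.0868). Rpa2 was not called (-0.06 ± 0.04, adjusted p = 0.448), although a dimmer probe set of it fell by 0.13 (log2 change -0.13, adjusted p = 0.0145).

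The last 3 groups of genes showed small changes. Lig1, the ligase that seals Okazaki fragments, read 11.90, 11.94, 11.97 and 11.92 in the knock-down and 12.12, 12.23, 12.02 and 12.09 in Luc (-0.18 ± 0.04, adjusted p = 0.0311), and the groups did not overlap. Fen1, the nuclease that trims the flaps before ligation, changed by 0.03 ± 0.07 and was not called (adjusted p = 0.919). Rrm1, the large subunit of ribonucleotide reductase, which makes deoxynucleotides, read 11.88, 11.97, 11.97 and 11.93 in the knock-down and 12.07, 12.27, 12.08 and 12.09 in Luc (-0.19 ± 0.05, adjusted p = 0.0377). The groups were apart, with Luc replicate 2 well above the other Luc arrays. These calls were close to the threshold: that of Lig1 was lost without any one knock-down array, Luc replicate 1 or Luc replicate 4 (adjusted p up to 0.0845), and that of Rrm1 without any one array other than Luc replicate 2 (up to 0.0989). The small subunit Rrm2 was not called at its brightest probe set, whose name ends in _x_at (0.09 ± 0.05, adjusted p = 0.399), and rose at the next one (0.20 ± 0.04, adjusted p = 0.00773). The fork protection genes Timeless and Tipin changed by -0.15 ± 0.07 and -0.08 ± 0.03 and were not called (adjusted p = 0.294 and 0.153).

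**Figure D2:**
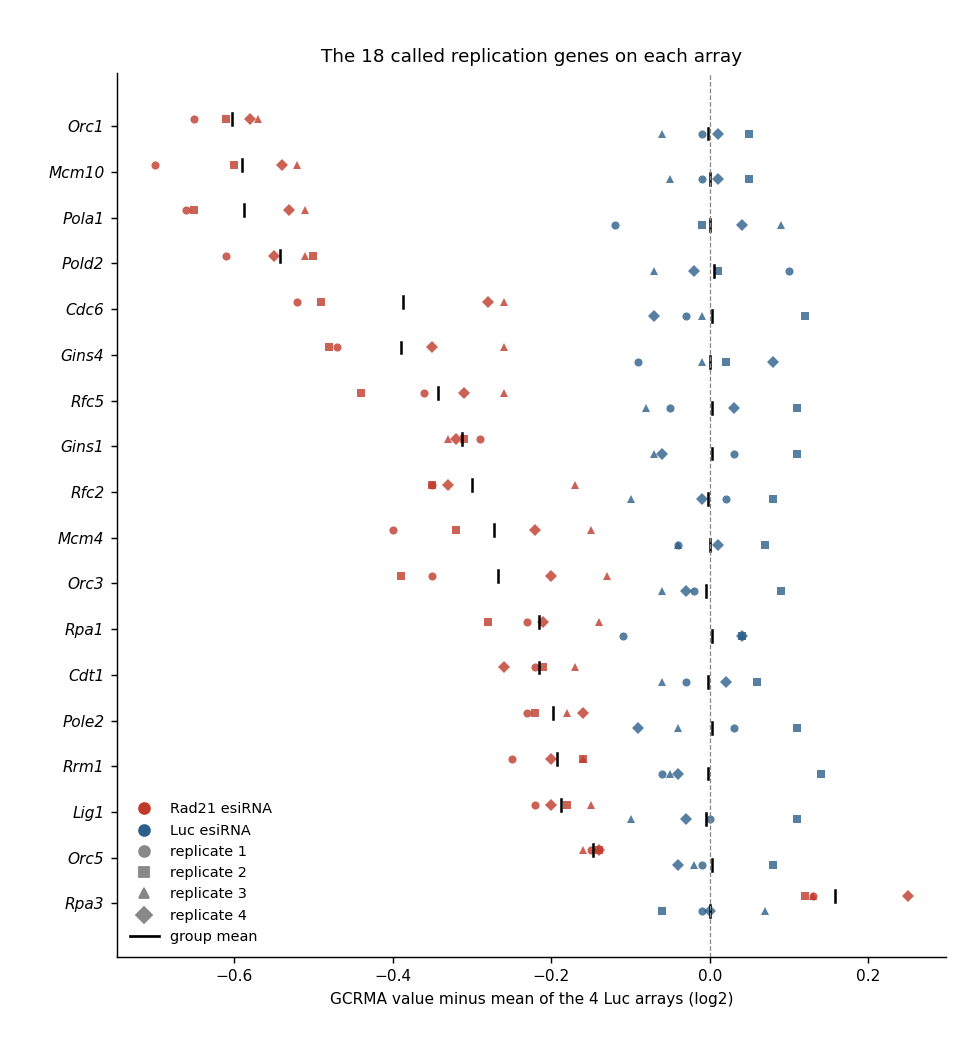
GCRMA value of each array minus the mean of the 4 Luc arrays (log2, horizontal axis) for the 18 called replication genes, in order of change, with Rad21 esiRNA in red, Luc esiRNA in blue, the replicate number by symbol and the group mean as a bar. No red point crosses a blue one within a gene, the gap is widest for Orc1 (change -0.60) and the spread between knock-down arrays is wide for Cdc6 (replicates 1 and 2 lower than 3 and 4).

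The median change was more negative in replicates 1 and 2 than in replicates 3 and 4, without a called difference for any of the 49 genes. It was -0.173 for replicates 1 and 2, against -0.101 for replicates 3 and 4. The bright genes had medians of -0.062 and -0.034 in these sets, and all genes -0.014 and 0.02. Of the 49 genes 36 were lower in both sets, 6 were higher in both and 7 differed in sign. Being lower in both sets was the case for 73.5% of them, 48.0% of the bright genes and 31.3% of all genes. Taken alone, replicates 1 and 2 gave 14 falls and 1 rise, Prim2 (10.8% of all genes fell and 9.03% rose), and replicates 3 and 4 gave 6 falls and 0 rises (7.67% each way). The 6 genes that fell in each set alone were Orc1, Cdc6, Mcm10, Gins1, Pola1 and Pold2. Orc1 changed by -0.65 and -0.55 in the sets, Mcm10 by -0.67 and -0.51, Pold2 by -0.61 and -0.49 and Pola1 by -0.58 and -0.59. The difference between the sets was called for 0 of the 49 genes by the limma interaction term, against 1.03% of all genes, with Cdc45 (-0.50 and 0.00, adjusted p = 0.0654) and Pold3 (-0.36 and 0.12, adjusted p = 0.0938) nearest to it. Pole went the other way, at 0.13 in replicates 1 and 2 and -0.18 in replicates 3 and 4 (adjusted p = 0.19 for the interaction). With these sets as a block in the fit to all 8 arrays, 20 genes fell and 2 rose, the calls gained being Orc2, Orc6 and Mcm6 (falls) and Mcm8 (a rise, adjusted p = 0.0342). With that block 14.9% of all genes fell and 12.2% rose.

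**Figure D3:**
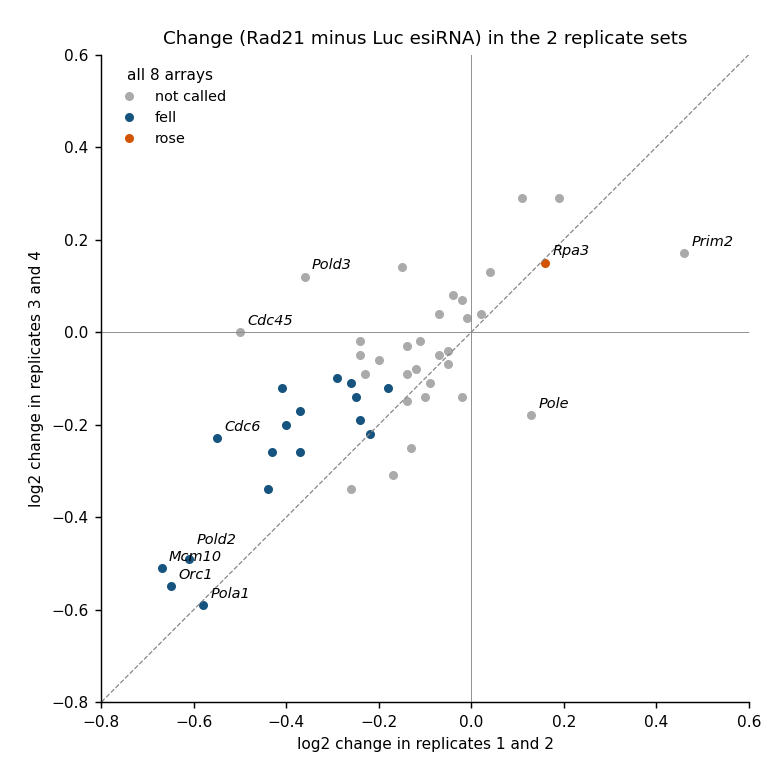
Log2 change (Rad21 esiRNA minus Luc esiRNA) of each of the 49 genes in replicates 1 and 2 (horizontal axis) and in replicates 3 and 4 (vertical axis), coloured by the call over all 8 arrays, with the line of equal change dashed. Orc1, Mcm10, Pola1 and Pold2 lie at the low end of both axes, and Cdc45 (-0.50 and 0.00) and Pold3 (-0.36 and 0.12) lie far off the line.

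The choice of probe set mattered for some genes. The 49 genes had 107 probe sets, with more than 1 for 36 genes, and of the 58 that were not the brightest of their gene 14 had both group means under 4, where GCRMA values are on the background plateau. Among 16 further probe sets of called genes, 3 were called in the same direction (for Cdt1, Rpa1 and Rrm1), 13 were not called and 0 were called in the opposite direction. Another 10 were called where the brightest was not, all of them in the direction of a fall except that of Rrm2. Of all probe sets on the arrays 8.4% fell and 6.47% rose. The 10 include Mcm3 at -0.23 and -0.39, Mcm5 at -0.24 and -0.68, Orc2 at -0.34 and -0.50, Pold3 at -0.51, Rfc4 at -0.33 and Rpa2 at -0.13 (adjusted p from 9.57e-04 to 0.0379). For the MCM ring the brightest probe sets of Mcm3, Mcm5 and Mcm7 are of the _x_at or _s_at kind, which can bind more than one transcript. Without that kind, Mcm3 changed by -0.23 (adjusted p = 0.0321) and Mcm5 by -0.24 (adjusted p = 0.00852). In the other direction, an _x_at probe set of Mcm6 read 0.24 (adjusted p = 0.118) and one of Mcm4 read 0.02 (adjusted p = 0.964), unlike the brightest probe sets of these genes. An _s_at probe set of Mcm2, nearly as bright as its brightest, read 0.07 (limma, adjusted p = 0.474). A dim one of Mcm3 read 0.15 (limma, adjusted p = 0.206).

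**Figure D4:**
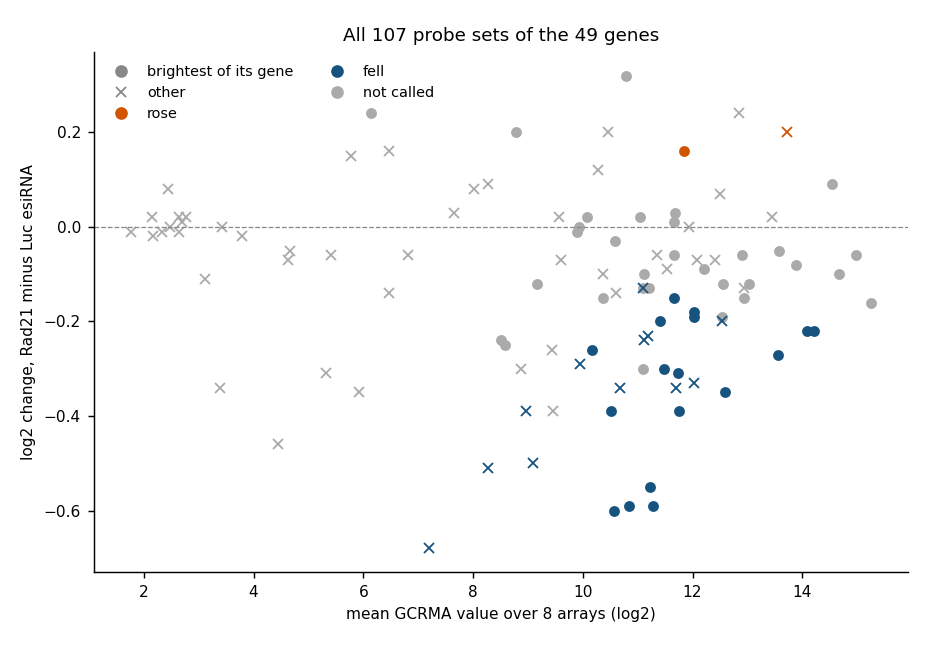
Log2 change (Rad21 esiRNA minus Luc esiRNA, vertical axis) of all 107 probe sets of the 49 genes against their mean GCRMA value over 8 arrays (log2, horizontal axis), with circles for the brightest of a gene, crosses for the others and colour for the call. Called falls outnumber called rises among circles (17 and 1) and crosses alike, and probe sets with a mean under 4 stay near 0 apart from 1 of Mcm10 at -0.34.

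Other genes of replication and S phase moved unevenly by role. Of 28 further fork and licensing genes 11 fell (39.3%) and 1 rose (3.57%), with a median of -0.089. Most genes of these related lists are bright. Of the bright genes 26.0% fell and 16.5% rose, and of all genes 12.6% fell and 10.1% rose. Ticrr, which brings CDC45 to origins, had a change of -0.76 ± 0.09 and its partner Mtbp one of -0.57 ± 0.10 (limma, adjusted p = 0.00107 and 0.00845). Atad5, which unloads PCNA, fell by 0.52 (log2 change -0.52, adjusted p = 0.00423), and Rnaseh2a, the catalytic subunit of the nuclease that removes ribonucleotides from DNA, changed by -0.49 (adjusted p = 0.00279). Rif1, a regulator of replication timing, was the rise, at 0.21 (adjusted p = 0.0476). Among 20 S-phase cyclin, kinase and checkpoint genes 10 fell (50%) and 2 rose (10%), with a median of -0.239. Hus1, part of the checkpoint clamp, changed by -0.62, Cdk2 by -0.53, the checkpoint kinase Chek1 by -0.47 and Cdc25a, a phosphatase that activates CDK2, by -0.41 (adjusted p from 9.19e-05 to 0.00721). The rises were Cdkn1a, which encodes the CDK inhibitor p21, at 0.74 ± 0.18 (adjusted p = 0.0312) and Cul4a, the scaffold of the ligase that destroys CDT1, at 0.49 (adjusted p = 0.0145).

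The E2F family and its partners went in both directions, with 4 falls (30.8%) and 3 rises (23.1%) in 13 genes (median -0.033). The number of falls was 1 with plain analysis of variance and 2 with quantile normalization or with centring on bright probe sets. Of all genes 9.73%, 11.9% and 11.3% fell in these settings. E2f4 was under 4 in both groups. Rb1, the retinoblastoma protein that holds E2F factors in check, read 10.91, 10.86, 10.42 and 10.62 in the knock-down and 9.83, 9.66, 9.67 and 9.60 in Luc, a change of 1.01 ± 0.11 (limma, adjusted p = 9.85e-04). Its groups were far apart. E2f7, a repressor, changed by 0.38 and E2f5, which acts with pocket proteins, by 0.25 (adjusted p = 6.55e-04 and 0.032). The falls were the activator E2f2 at -0.76, the repressor E2f8 at -0.42, the dimerisation partner Tfdp2 at -0.41 and the pocket protein gene Rbl1 at -0.30 (adjusted p = 0.0319, 0.007, 0.0411 and 0.0406). E2f2 was dim, at 5.40 in the knock-down and 6.17 in Luc. In replicates 3 and 4 alone it was not called (-0.65, limma, adjusted p = 0.379). Among 14 genes of nucleotide supply 3 rose (21.4%) and 5 fell (35.7%), with a median of 0.003. Dck, a salvage kinase, changed by 0.40, Cad, which starts pyrimidine synthesis, by 0.32 and the dUTPase gene Dut by 0.15, whereas Samhd1, which degrades deoxynucleotides, changed by -0.53, Umps by -0.41, Shmt1 by -0.40 and Gart by -0.19 (adjusted p from 6.40e-04 to 0.0399). The last 3 encode enzymes of pyrimidine, one-carbon and purine metabolism. Of 11 genes of chromatin assembly at forks only Rbbp7, a histone chaperone, was called (0.31, adjusted p = 0.0052). This is 9.09% of them, against 42.4% of the bright genes called in either direction.

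Mitotic genes, which are transcribed later in the cycle, had mostly positive changes, with a median of 0.097 over 28 genes. Of these 9 rose (32.1%) and 1 fell (3.57%), against 16.5% and 26.0% of the bright genes. With plain analysis of variance 5 of the 28 rose, and 7.75% of all genes did. Ect2, needed for cytokinesis, changed by 0.45 and the spindle checkpoint genes Bub1, Mad2l1 and Ttk by 0.29, 0.28 and 0.28, while the centrosome kinase gene Nek2 changed by -0.17 (limma, adjusted p from 1.81e-04 to 0.0303). All 28 have a mean of at least 8, as do 48 of the 49 replication genes. No test was made between the lists.

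**Figure D5:**
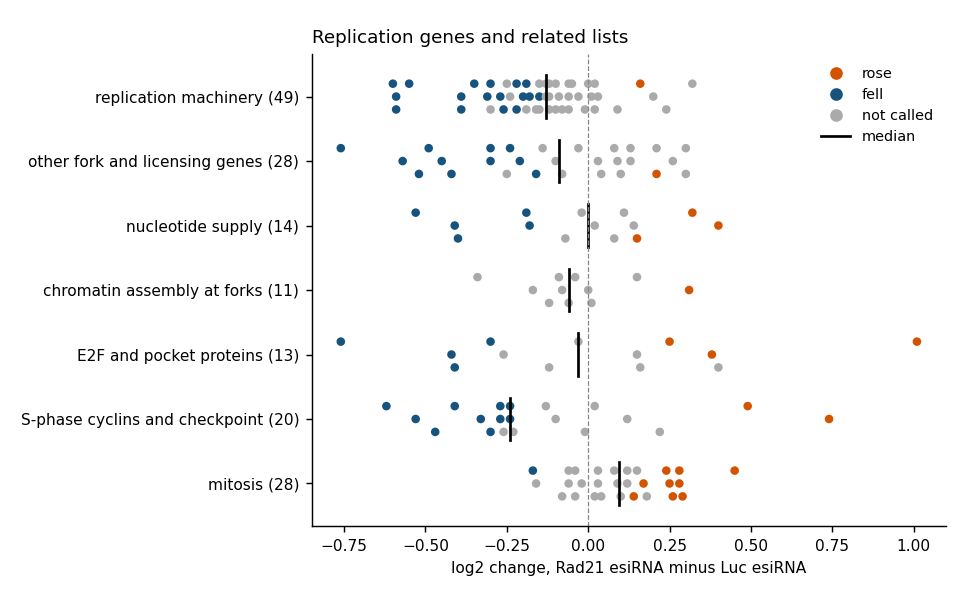
Log2 change (Rad21 esiRNA minus Luc esiRNA, horizontal axis) of every gene of the replication machinery and of 6 related lists, with the number of genes in parentheses, colour for the call and a bar at the median. The median is -0.131 for the replication machinery, -0.239 for S-phase cyclins and checkpoint genes and 0.097 for mitosis.

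Some markers of cell identity moved at the same time. Calls in either direction covered 83.3% of pluripotency, 41.7% of endoderm and 55.6% of trophectoderm markers. They covered 37.5% of neural, 10% of mesoderm and 11.1% of fibroblast markers. The shares were 22.6% of all genes and 42.4% of the bright genes. Of 12 pluripotency markers 10 fell, with summed levels (log2) of 16.67 to 16.71 in the knock-down and 17.22 to 17.25 in Luc. Prdm14, Tbx3, Fgf4 and Tfcp2l1 had the largest changes, -2.25, -2.17, -1.71 and -1.61. Pou5f1 was still at 14.50 ± 0.04 in the knock-down, against 15.05 ± 0.09 in Luc, and Sox2 at 14.72 against 14.74 (SD, n = 4). Of 12 endoderm markers 5 rose, summing to 10.16 to 10.25 in the knock-down and 9.38 to 9.65 in Luc, led by Foxa2, Foxa1, Dab2 and Apob (4.63, 3.03, 2.06 and 1.59), while Gata4, Gata6, Sox17, Sox7, Afp and Ttr were under 4 in both groups. Of 9 trophectoderm markers 3 rose (Krt7, Cdx2 and Krt19) and 2 fell (Tead4 and Tfap2c), summing to 12.98 to 13.65 in the knock-down and 12.94 to 13.45 in Luc, with Elf5 and Gata3 under 4. Of 8 neural markers 2 rose (Neurod1 and Map2) and 1 fell (Tubb3), summing to 11.16 to 11.62 in the knock-down and 10.91 to 10.97 in Luc, with Sox1, Neurog1 and Neurog2 under 4. The mesoderm list, where Twist1 rose, summed to 7.70 to 7.90 in the knock-down and 7.25 to 7.89 in Luc with 8 of 10 genes under 4. The fibroblast list, where Thy1 fell, summed to 6.88 to 7.10 in the knock-down and 6.67 to 7.12 in Luc with 7 of 9 genes under 4. The markers named here as risen or fallen had adjusted p-values from 9.88e-06 to 0.0388 (limma). The part of these shifts in the changes of the replication genes was not tested.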

How the data were processed

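The deposited values are log2 expression values that the authors made with GCRMA in Partek Genomics Suite 6.4 from whole-genome mouse expression arrays (Affymetrix). GCRMA corrects probe background by GC content and normalizes the arrays at the level of single probes, which hides a shift shared by all transcripts. The deposited probe set values did not have exactly one distribution, with array medians from 3.08 to 3.16. The labels give 250 ng of RNA for labelling. Of 45101 probe sets 64 controls were left out. The platform annotation names a single gene for 34945 probe sets, several for 932 and none for 9160; 34741 of the single names were found by Entrez ID in RefSeq (GRCm38.p6), with 0 changed.

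Rad21 esiRNA and Luc esiRNA arrays (n = 4 each) were compared per probe set with limma 3.58.1 (lmFit and eBayes, two-sided) in R 4.3.3, with data.table (version 1.17.8), pandas 2.3.3 and matplotlib 3.10.9. The study names a parametric analysis of variance, which was run as one alternative and gave 14 falls among the 49 genes. Precision is limited by the number of arrays. On simulated data over 45037 probe sets with 200 changed per run, the test recovered 50.4% of changes of 0.25, 71.6% of 0.5, 91.6% of 1 and 97.6% of 2 (log2). The changed probe sets were drawn at random, from a median level of 3.14, against 11.66 for the replication genes. They were also far fewer than the 6697 called in the data. The shares therefore do not give the recovery for the replication genes.

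Members and lists were chosen with earlier results of these data known. Every member is accounted for; array values are printed for the called genes, and up to 4 called genes in each direction are named in each of 12 lists, with all called E2F and pocket protein genes. Promoters are those of the called genes with the largest falls that hold an E2F match and of 1 gene not called. Orc5's array values and the values of genes near the threshold were chosen after they had been seen. Alternatives were other variance models, blocks, normalizations, filters, thresholds, probe set rules, subsets of replicates and leaving out each array.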

Additional observations from a re-analysis of the deposited data

Results flagged for a closer look

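Among 100 groups of 4 arrays (both groups of the 49 genes and of Rad21), 5 held an array that stood apart from the other 3 by Dixon's criterion, which chance alone flags in about 1 in 20 groups. Rfc2 read 11.46 in knock-down replicate 3, against 11.28 to 11.30 in the other knock-down arrays. Rpa3 read 12.02 in knock-down replicate 4, against 11.89 to 11.90. In the Luc control, Cdc7 read 10.03 in replicate 3, against 10.08 to 10.09, Rpa1 read 14.21 in replicate 1, against 14.36 in the others, and Rrm1 read 12.27 in replicate 2, against 12.07 to 12.09. They fall on 5 different arrays. Without the array concerned Rfc2, Rpa1 and Rrm1 were still called, Cdc7 was still not called, and Rpa3 lost its call (0.13, limma, adjusted p = 0.0569).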

How the results depend on the processing

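Over 20 alternatives at the same threshold the falls of Orc1, Cdc6, Mcm10, Gins1, Pola1 and Pold2 stayed called. The number of genes that fell, 17, was 6 in replicates 3 and 4 alone, 9 at an adjusted p under 0.01 and 13 to 17 when 1 array was left out, and it was 19 without _x_at and _s_at probe sets, 20 with a block for the replicate sets, and 22 both with the mean of all probe sets and at an adjusted p under 0.10. The single rise was 0 with plain analysis of variance, a robust prior with variance trend, the replicate block, replicates 3 and 4 alone and an adjusted p under 0.01, was 2 with a block for the replicate sets, a mean of at least 4, the mean of all probe sets or no _x_at and _s_at probe sets, 4 at an adjusted p under 0.10, and 0 to 1 when 1 array was left out. In these settings at the 0.05 threshold 7.67% to 12.2% of all genes rose, and 19.4% of those with a mean of at least 4. The median, -0.131, was -0.173 in replicates 1 and 2, -0.101 in replicates 3 and 4, -0.107 with quantile normalization, -0.102 when centred on bright probe sets, -0.104 with array weights and -0.16 to -0.103 when 1 array was left out. Over all genes the median, 0.003, was -0.014 in replicates 1 and 2, 0.02 in replicates 3 and 4 and -0.006 with quantile normalization. It was 0.033 when centred on bright probe sets, 0.009 with array weights and -0.005 to 0.014 when 1 array was left out. Centring subtracts the same amount from every gene of an array. The cause of the other shifts was not tested. Among the related lists, plain analysis of variance gave 1 rise in nucleotide supply and 1 in S-phase cyclins and checkpoint. Rises among the other fork and licensing genes ranged from 0 with plain analysis of variance to 3 with a mean of at least 4.

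Same-numbered arrays deviated together with correlations of 0.068, 0.169, 0.084 and 0.175, and each knock-down array correlated best with a Luc array of another number, so the numbers were not taken as pairs. With the replicate block 14 genes fell, and 11.4% of all genes did.

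Signs turned only for genes that were not called, with changes from -0.13 (Orc4) to 0.03 (Fen1) on all 8 arrays. With the mean of all probe sets Orc4 was 0.04, Mcm6 0.05, Cdc7 -0.22 and Rfc3 -0.04. In replicates 1 and 2 Cdc7 was -0.04, Pold1 -0.01, Pole 0.13 and Rfc3 -0.02, and in replicates 3 and 4 Gins2 was 0.14, Pola2 0.04 and Pold3 0.12. Quantile normalization gave Gins2 0.02 and Pola2 0.01, centring 0.03, 0.02 and Pole 0.00, and array weights Gins2 0.05 and Pola2 0.01. When 1 array was left out Cdc7 ranged from -0.02 to 0.04, Gins2 from -0.05 to 0.05, Pola2 from -0.03 to 0.01, Pold1 from -0.02 to 0.07, Pole from -0.06 to 0.02, Rfc3 from -0.01 to 0.07 and Fen1 from -0.02 to 0.09.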
